A study of Mus musculus with 6 samples.

Results

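The gasdermin family was described in messenger RNA from mouse small intestine. Its members were found by gene symbol in the deposited count table (Gsdmc, Gsdmc2, Gsdmc3, Gsdmc4, Gsdma, Gsdmd and Gsdme), and all 7 are among its 33017 genes. The 6 libraries are labelled control (control 1 to 3) and model (model 1 to 3), 3 in each group, and all came from frozen small intestine. The title of the series speaks of simulated microgravity combined with radiation and of the compound CB001, and its design text of the joint effect of both factors. No library here carries a label for that compound. The labels give no strain, age, dose, time or length of gut sampled. Whether each library comes from its own animal is not stated either, so every SD, SE and p below reflects variation among 6 libraries that may be technical. The family was selected on the measured difference of Gsdmc4 between the groups, so the values of its members in model against control are given as a description. Counts of members past a threshold stand beside those of the whole table and support nothing, since they come from the contrast that chose the family.

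Gasdermins are proteins with a pore-forming amino-terminal domain held inactive by a carboxy-terminal one. A protease cuts between them, and the freed domain inserts into the cell membrane, where its pores release cytokines such as IL-1β and IL-18 and can end in the lytic death called pyroptosis. Gsdmd is cut by the inflammatory caspases Casp1 and Casp4, and Gsdme can be cut by the lymphocyte protease Gzmb. In the mouse the Gsdmc genes are a cluster of near-copies, and in gut epithelium they are known as targets of the type 2 cytokines IL-4 and IL-13, which signal through the transcription factor Stat6. Gsdma is best known from skin.

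The Gsdmc copies are so alike that sequence decides how well their reads can be told apart, so the sequences are shown first. In the RefSeq annotation (GRCm38.p6, an older build than the GRCm39 used for the counts) the cluster lies on chromosome 15 in the order Gsdmc, Gsdmc2, Gsdmc3, Gsdmc4. Of its pseudogenes Gsdmcl1 lies between Gsdmc2 and Gsdmc3, Gsdmcl2 between Gsdmc3 and Gsdmc4, and Gsdmcl-ps after Gsdmc4. In GENCODE coding sequences (GRCm38) Gsdmc2 and Gsdmc3 were 97.1% identical over 1443 aligned bases, Gsdmc2 and Gsdmc4 93.5%, and Gsdmc3 and Gsdmc4 also 93.5%. Gsdmc was 85.9% to 87.1% identical to these 3, while Gsdmd and Gsdme were 45.3% identical to each other. The window of 60 coding bases in which Gsdmc2, Gsdmc3 and Gsdmc4 differed most is printed below, starting at coding base 803 in Gsdmc2 and Gsdmc3 and at 809 in Gsdmc4 (counted from the A of the start codon). Capitals mark the 16 bases that are not the same in all 3 copies.
Gsdmc2: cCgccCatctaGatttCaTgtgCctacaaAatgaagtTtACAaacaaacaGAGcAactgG
Gsdmc3: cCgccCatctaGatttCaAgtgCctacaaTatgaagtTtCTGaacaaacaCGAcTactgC
Gsdmc4: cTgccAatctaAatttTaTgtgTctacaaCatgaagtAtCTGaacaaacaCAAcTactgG
By contrast, the longest run identical in the 3 copies covers 171 bases (coding bases 519 to 689 of Gsdmc4), and a read that falls wholly inside it cannot be given to one of them:
Gsdmc4: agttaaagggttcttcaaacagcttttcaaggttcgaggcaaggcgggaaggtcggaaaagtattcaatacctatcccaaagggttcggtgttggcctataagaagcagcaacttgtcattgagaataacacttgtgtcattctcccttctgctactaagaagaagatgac

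Over whole transcripts, 51.3% of the 50-base windows of Gsdmc2, 46.0% of those of Gsdmc3 and 39.0% of those of Gsdmc4 also occur in a transcript of another gene, in each case a member of the cluster. With windows of 150 bases these shares were 14.9%, 18.0% and 8.83%. For the read length and the handling of multi-mapping reads nothing is stated in the sources used here, so the split of counts between the copies is uncertain, and their sum is given beside them. Gsdmd and Gsdme shared 0% of their windows at 50, 100 and 150 bases, so no stretch of their transcripts of that length leads to another gene. Gsdma shared 8.26% at 50 bases, with Gsdma2 and Gsdma3. RefSeq promoter windows (250 bases before to 50 after the start, GRCm38.p6) were at hand for 2 of the 7 members, Gsdmc3 and Gsdme. That of Gsdmc3, the only Gsdmc copy with such a window, is shown (chr15:63878509-63878808, minus strand, written in the direction of transcription). Capitals mark the 50 bases after the start.
Gsdmc3: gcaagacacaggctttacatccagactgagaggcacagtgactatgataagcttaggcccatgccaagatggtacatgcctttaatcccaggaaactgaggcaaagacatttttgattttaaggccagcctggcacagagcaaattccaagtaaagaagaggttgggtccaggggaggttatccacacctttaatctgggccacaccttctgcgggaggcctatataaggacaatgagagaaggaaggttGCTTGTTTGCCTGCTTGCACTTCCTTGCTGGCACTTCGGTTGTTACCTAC
Searched on both strands, neither window held any of 6 motifs in the exact letters given below. Forms with other letters were not searched, such as tatataag and tgataa, which the Gsdmc3 window holds. The spacing of the STAT letters that Stat6 prefers (TTC, then 4 free bases, then GAA) occurs in 6.95% of all 32851 promoter windows of this length, and the general STAT letters TTCNNNGAA in 8.30%. The interferon factor letters (GAAA, then 2 free bases, then GAAA) occur in 3.44%, GATA letters (AGATAA) in 11.2%, CDX letters (TTTATG) in 11.9% and the TATA box (TATAAA) in 13.6%. The Gsdme window (chr6:50261720-50262019, minus strand) had a GC content of 65.7%, that of Gsdmc3 48.3%, and the median window 52.7%.

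Library totals lay between 35007515 and 45285564 counts. Levels are CPM, a gene's counts relative to the library total after TMM scaling, which corrects for differences in library make-up. Means are given ± SD with n = 3 per group. Of 33017 genes, 15904 had enough counts to enter the edgeR fit, and 6 of the 7 gasdermins were among them. Control 3 stood apart from the other libraries in markers of gut position, and the part of gut position in the values of the members was not tested. Fabp6, the ileal bile acid binding protein, reached 1166 CPM in control 3 and 0.28 CPM or less in the other 5 libraries, and Slc10a2, the ileal bile acid transporter, at 647.9 CPM against 1.11 to 4.60 CPM. Gata4, a transcription factor of the proximal small intestine, lay at 1.90 CPM in control 3, against 214 to 255 CPM elsewhere. The summed level of 6 distal markers was 2945 CPM in control 3 and 216 to 347 CPM elsewhere, and that of 6 proximal markers 249 CPM against 3791 to 6721 CPM. Epithelial markers summed to 9384 to 13394 CPM in all 6 libraries. The fold changes of the members that rest on control 3 and their spread across libraries are therefore given with and without it.

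Gsdmc4, the copy with the highest counts in 5 of the 6 libraries, measured 9.66, 6.49 and 79.6 CPM in control 1, 2 and 3 (463, 243 and 3352 counts). In model 1, 2 and 3 it measured 1.80, 1.45 and 1.65 CPM (52, 64 and 58 counts). The model libraries lay close together and below every control library, and control 3 lay far above the other controls. The control mean was 31.9 ± 41.3 CPM, the model mean 1.63 ± 0.175 CPM, and edgeR's log2 fold change of model over control was -4.29 (SE 0.998). Without control 3 it was -2.29 (SE 0.35), since the mean of control 1 and 2, 8.08 CPM, was 4.94 times the model mean. In those 5 libraries the distal marker sum did not separate the groups, with 242 and 269 CPM in control 1 and 2 and 347, 216 and 250 CPM in model 1, 2 and 3. That sum came mostly from Slc51a and Nr1h4, and single markers varied more: Cubn, an ileal vitamin B12 receptor, measured 70.4 and 12.03 CPM in control 1 and 2 and 6.40, 4.01 and 32.9 CPM in model 1, 2 and 3. The part of gut position in the Gsdmc4 values of these 5 libraries was not tested. In whole tissue, fewer cells of a type and less RNA per cell cannot be told apart.

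Gsdmc2 measured 4.17, 1.60 and 52.6 CPM in the control libraries and 0.485, 1.59 and 0.313 CPM in model 1, 2 and 3. Its control 2 and model 2 values nearly met, and with scaling by library size alone the groups overlapped (1.596 CPM in control 2 and 1.604 CPM in model 2). The log2 fold change was -4.58 (SE 1.44), and -1.82 (SE 0.77) without control 3. Gsdmc3 was at 1.06, 0.695 and 31.1 CPM in control 1, 2 and 3, from 51, 26 and 1311 counts. In the model libraries it had 0, 4 and 1 counts, or at most 0.091 CPM, and the 0 of model 1 allows up to 0.104 CPM (3 counts). It passed the filter on low counts only through the control libraries. Its log2 fold change of -7.84 (SE 1.99; -4.22 and SE 1.06 without control 3) depends on the prior count edgeR adds to such low values.

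**Figure D1:**
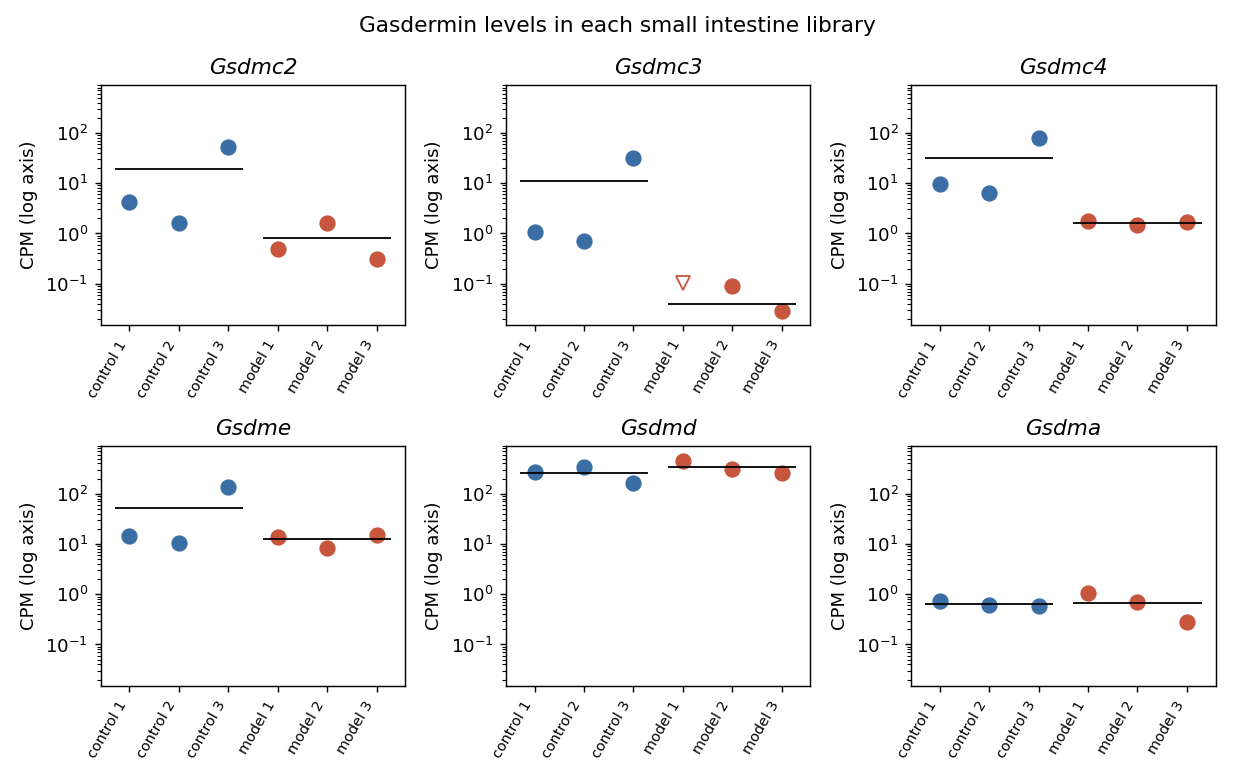
CPM of the 6 gasdermins with counts (log axis, the same range in each panel) in each control (blue) and model (red) library, with group means as lines, n = 3. The open triangle marks a count of 0, drawn at the level that 3 counts would give. Control 3 is the highest library for Gsdmc2, Gsdmc3, Gsdmc4 and Gsdme and the lowest for Gsdmd.

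Gsdmc itself was listed at 0 in all 6 libraries, like 11665 genes of the table. A count of 0 allows up to 0.063 to 0.104 CPM, depending on the library (3 counts, counting error only). Of its 50-base windows 16.1% occur in other members of the cluster, and the rest would tell its reads from theirs. The pseudogene Gsdmcl2, picked out with its counts in view, had 11, 40 and 213 counts in control 1, 2 and 3 and 3, 2 and 0 in model 1, 2 and 3. It thus had its highest count in the same library as its neighbours, but fell short of the counts needed to enter the fit. Gsdmcl1 and Gsdmcl-ps were listed at 0 throughout.

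Summed over the copies, the cluster was at 14.9, 8.79 and 163 CPM in control 1, 2 and 3 and at 2.28, 3.13 and 1.99 CPM in model 1, 2 and 3. The groups did not overlap, and the sum does not depend on how counted reads were divided between the copies. Any reads left uncounted because they match several copies would be missing from the sum too. Its means were 62.3 ± 87.5 and 2.47 ± 0.590 CPM and its log2 fold change was -4.65 (SE 1.19). Without control 3 it was -2.24 (SE 0.37), the mean of control 1 and 2 being 4.80 times that of the model group.

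The make-up of this sum also varied between libraries. Gsdmc4 gave 64.8% of it in control 1 (95% Wilson interval 61.3% to 68.3%), 73.9% in control 2 (68.9% to 78.3%) and 48.7% in control 3 (47.6% to 49.9%). In the model libraries Gsdmc4 gave 78.8% (67.5% to 86.9%), 46.4% (38.3% to 54.7%) and 82.9% (72.4% to 89.9%). Gsdmc3 gave 19.1% in control 3 (18.2% to 20.0%) but 7.14% in control 1 (5.47% to 9.27%) and 7.90% in control 2 (5.45% to 11.3%). In model 1 it gave 0 of 66 counts, which allows a share of up to 4.55% (3 of 66 counts), or 5.50% by the upper Wilson bound. Model 2 was the one library in which Gsdmc2, at 50.7% (42.5% to 58.9%), gave more counts than Gsdmc4. The cluster total behind these shares was 329 to 6876 counts in control and 66 to 138 in model libraries, and the intervals cover counting error only.

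**Figure D2:**
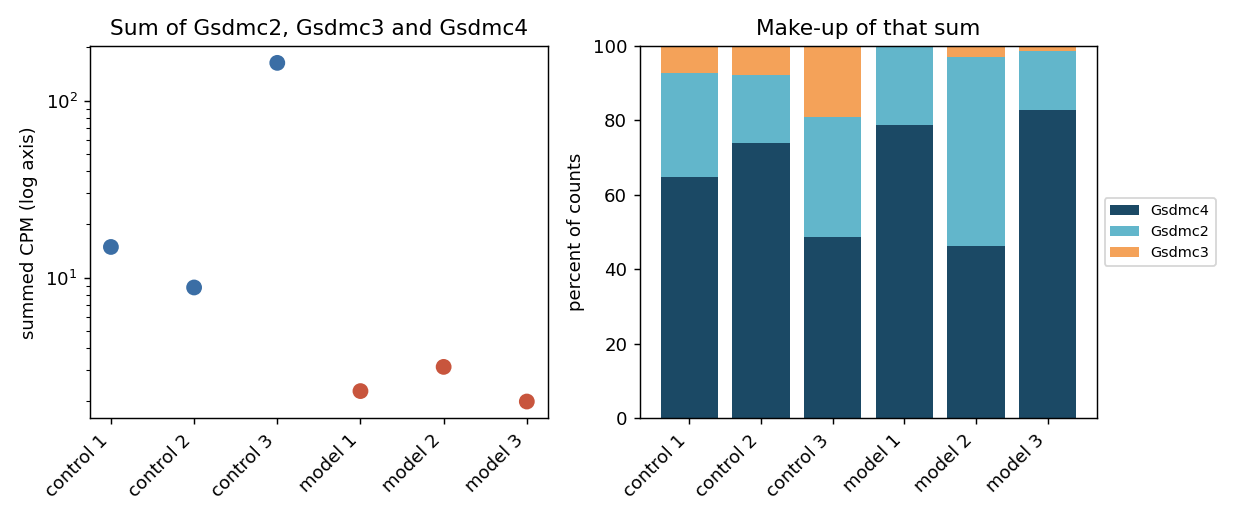
Left: summed CPM of Gsdmc2, Gsdmc3 and Gsdmc4 in each library (log axis; blue control, red model). Right: percent of the summed counts given by each copy. Gsdmc3 takes 19.1% in control 3 and 7.90% or less in the other 5 libraries.

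Gsdme measured 14.5, 10.4 and 133 CPM in control 1, 2 and 3 and 13.8, 8.37 and 15.0 CPM in model 1, 2 and 3. The groups overlapped, and 5 of the 6 libraries lay between 8.37 and 15.0 CPM. The log2 fold change was -2.08 (SE 0.96) with control 3 and 0.0041 (SE 0.33) without it. Gsdme and the Gsdmc copies thus shared the high value in control 3. They differed in the other libraries, where the ratio of the control 1 and 2 mean to the model mean was 1.01 for Gsdme and 4.94 for Gsdmc4. The high value of Gsdme came with the position markers of control 3, whose part in it was not tested.

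Gsdmd, the gasdermin cut by inflammatory caspases, measured 270.4, 332 and 165 CPM in the control libraries and 443, 307 and 256 CPM in the model libraries. The groups overlapped: model 3 lay below control 1 and 2, and the lowest value of all was in control 3, where Gsdme and the Gsdmc copies were highest. The means were 256 ± 84.6 and 336 ± 96.5 CPM, with a log2 fold change of 0.39 (SE 0.33), and 0.17 (SE 0.30) without control 3. It gave 90.0% to 96.3% of all gasdermin counts in 5 libraries (94.4% in control 2) but 35.7% in control 3, where the Gsdmc copies gave 35.4% and Gsdme 28.8%. Gsdma, the skin gasdermin, was close to the lower limit of measurement, with 23 to 35 counts in control and 10 to 31 counts in model libraries. Its means of 0.638 ± 0.0826 and 0.675 ± 0.378 CPM lay within each other's spread (log2 fold change 0.07, SE 0.59). Skin markers (5 in the table, Krt5 listed at 0) summed to 2.004 to 3.70 CPM.

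Levels of different genes can be compared only per length. Per kb of annotated exon (GENCODE, GRCm38), Gsdmd stood at 108 ± 35.6 CPM per kb in the controls, with 141 ± 40.6 in the model group, above all other members in every library. In control 1 and 2 Gsdmc4 came next, at 4.63 and 3.11 CPM per kb. Gsdmc2 (1.80 and 0.693) lay above Gsdme (1.14 and 0.820) in control 1 and below it in control 2. In model tissue Gsdme (0.974 ± 0.278) and Gsdmc4 (0.783 ± 0.0838) were next and did not differ beyond their spread, nor did Gsdmc2 (0.344 ± 0.299) and Gsdma (0.248 ± 0.138), while Gsdmc3 was last at 0.0171 ± 0.0199. The place of Gsdme depends on its length. Its annotated exons cover 12742 bases, retained introns included, but its longest coding transcript has 4383, and per kb of the latter it stood at 1.91 to 3.43 in the model libraries and, at 3.32 and 2.38, above Gsdmc2 in both control 1 and 2.

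**Figure D3:**
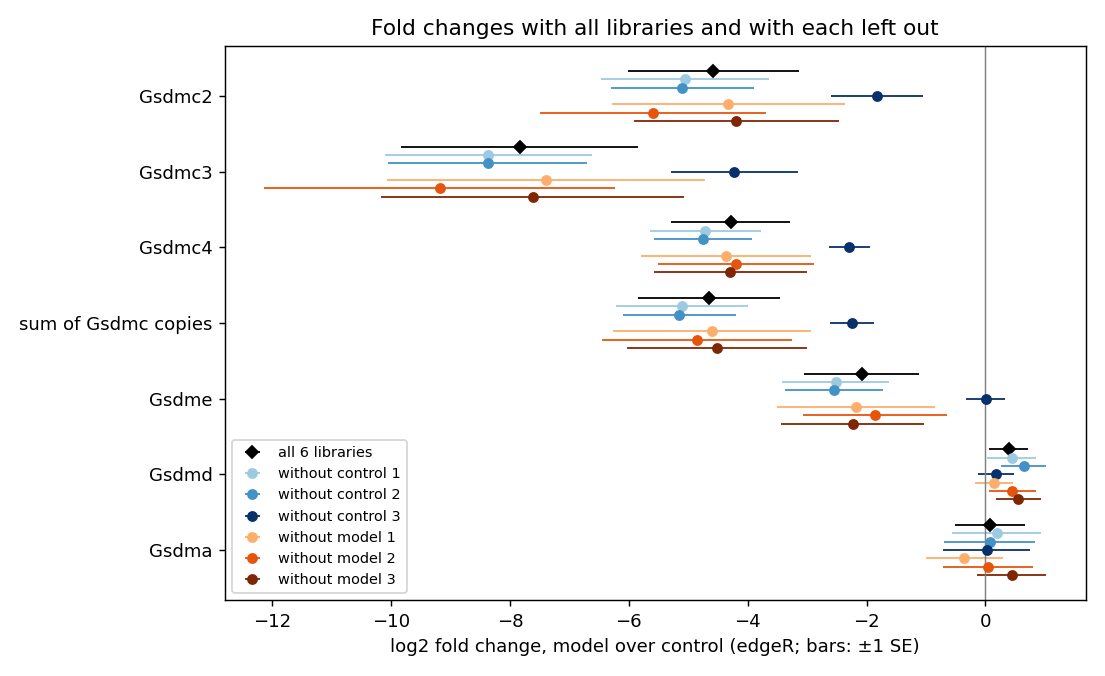
Log2 fold changes of model over control (edgeR, bars ±1 SE) for each gasdermin and for the sum of the Gsdmc copies, with all 6 libraries (black) and with each library left out. Without control 3 Gsdme lies at 0.0041, while Gsdmc4 lies at -2.29 and the sum at -2.24.

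Over the whole table edgeR's quasi-likelihood test called 0 of 15904 genes (0% called, Benjamini-Hochberg adjusted p under 0.05), and 765 had an unadjusted p under 0.05. It called 0 of the 6 gasdermins in the fit. The alternative test, DESeq2, called 25 genes (0.157% of the 15904), with 1 gasdermin, Gsdmc4, among them, the gene from which the family was proposed. DESeq2 gave no adjusted p for Gsdmc3 and Gsdme, so neither could be called there. Over all genes 11.1% did not overlap between the groups, 6.33% with lower and 4.73% with higher model values. Among the gasdermins in the fit 3 did not overlap, Gsdmc2, Gsdmc3 and Gsdmc4, all with lower model values. The family was chosen on Gsdmc4 in this contrast and the copies may share reads, so the count is a description. With scaling by library size alone Gsdmc2 overlapped.

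The members varied very unequally across the libraries. The SD of log2 CPM over the 6 libraries was 2.57 for Gsdmc2, 3.42 for Gsdmc3, 2.21 for Gsdmc4 and 1.44 for Gsdme, while that of Gsdmd was 0.47 and that of Gsdma 0.56. Relative to all 15904 genes these SDs stood at the 99.4th, 99.8th, 99.1st and 96.1st percentile, and at the 56.1st for Gsdmd and the 65.8th for Gsdma. Over the 5 libraries without control 3 the SDs of the Gsdmc copies were 1.42, 1.97 and 1.25, still at the 97.0th, 99.4th and 95.3rd percentile. That of Gsdme was 0.36, at the 48.5th percentile, close to Gsdmd at 0.31. Likeness of 2 profiles was measured as the root mean square difference of their log2 CPM after each was centred on its own mean, over the 6 libraries. It was 0.83 between Gsdmc2 and Gsdmc4, 1.04 between Gsdmc2 and Gsdmc3 and 1.19 between Gsdmc3 and Gsdmc4. Gsdme was 1.11 from Gsdmc4, nearer than Gsdmc3 was, and Gsdmd was 0.47 from Gsdma and 1.68 from Gsdme. Without control 3 the copies were 0.82 to 0.91 apart. Gsdme was then 1.10 from Gsdmc4, farther than Gsdmc3 was at 0.82, and 0.45 from Gsdmd.

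Among 13823 other genes with a mean of at least 1 CPM, the 5 nearest to the mean profile of the Gsdmc copies were Prss30, Car3, Nos2, P2ry2 and Tppp, at differences of 0.89 to 1.15. Prss30, a serine protease, measured 27.5, 10.5 and 229 CPM in control 1, 2 and 3 and 5.68, 11.9 and 8.52 CPM in model 1, 2 and 3. Nos2, the inducible nitric oxide synthase, was at 8.99, 9.27 and 445 CPM in the controls, with 1.45, 17.1 and 1.62 CPM in the model libraries. Both were highest in control 3, and their model libraries overlapped with control 1 or 2, as did those of Car3 and P2ry2. Tppp did not overlap, like Gsdmc4. It measured 28.3, 14.6 and 90.3 CPM in control 1, 2 and 3 and 4.33, 11.3 and 7.69 CPM in model 1, 2 and 3. Among the 3 nearest to Gsdme were Xpnpep2, an aminopeptidase, at 0.23 and Map3k6, a kinase, at 0.26. Xpnpep2 reached 287 CPM in control 3, against 16.9 to 31.3 CPM elsewhere. Nearest to Gsdmd were Hsdl2, Agpat1 and Fam120aos, at 0.042 to 0.049, and Agpat1, an acyltransferase of phospholipid synthesis, lay at 85.8 CPM in control 3, against 137 to 231 CPM elsewhere. Nearest to Gsdma were Nme4, Tmem51os1 and Gm10433, at 0.12 to 0.18. These genes were picked as the nearest of 13823 over 6 libraries. Over the 5 without control 3, Tppp was 0.59 and Prss30 0.79 from the copies, among the nearest 0.043% and 0.23% of the candidates, while Car3 and Nos2 were 1.10 and 1.11 from them and within the nearest 6.50% and 7.39%. Xpnpep2 was then 0.24 and Map3k6 0.26 from Gsdme, within the nearest 1.98% and 3.89%.

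**Figure D4:**
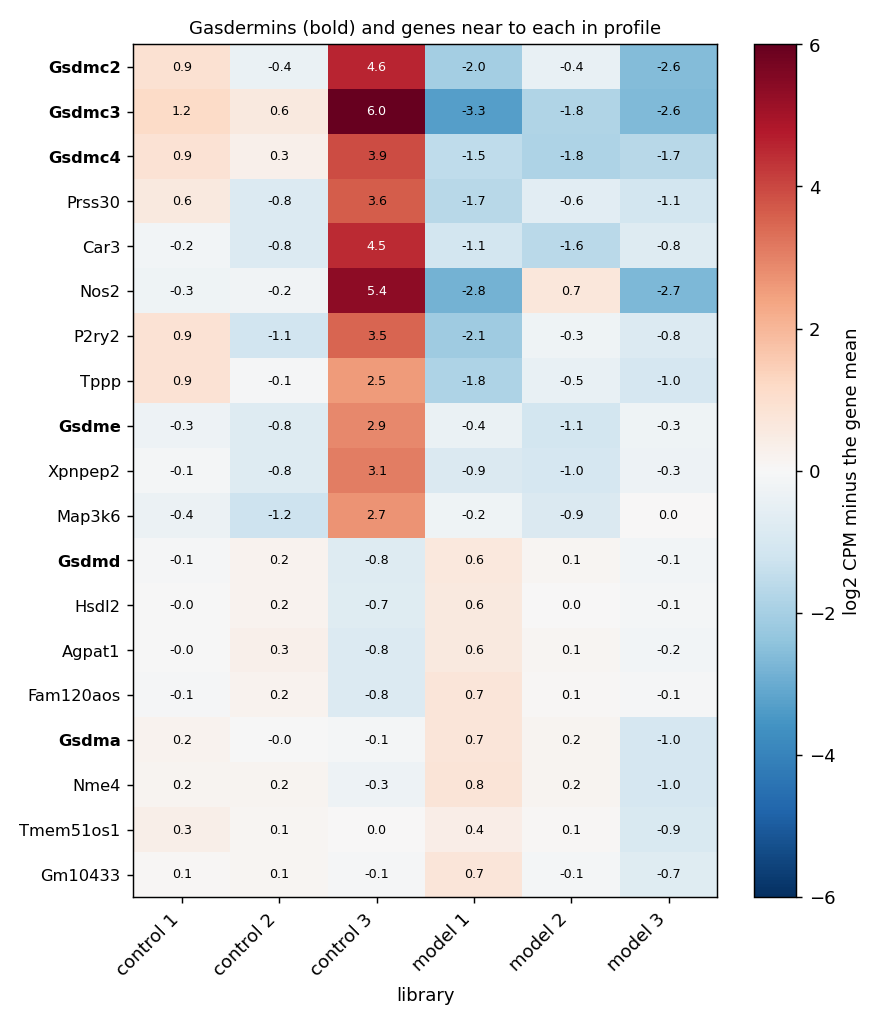
Log2 CPM minus each gene's own mean in the 6 libraries, for the 6 gasdermins with counts (bold) and genes near to each in profile. Gsdmc2, Gsdmc3, Gsdmc4, Gsdme and the genes near them are highest in control 3, while Gsdmd and its nearest genes are lowest there.

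Marker lists of other cell types in the tissue were set beside the gasdermins. Paneth cell markers (5 in the table) summed to 6588 CPM in control 3, 2235 CPM in control 1 and 23.9 CPM in control 2. In the model libraries they summed to 97.2 to 878 CPM. B cell and follicle markers (10 in the table, of which Ms4a1 was listed at 0) summed to 338 CPM in control 3 and 200.2 CPM in model 3. Elsewhere they summed to 13.3 to 47.3 CPM. Goblet cell markers summed to 17115 CPM in control 3 and 7989 to 12554 CPM elsewhere. Tuft cell markers summed to 58.4 CPM in control 3 and 75.1 to 103 CPM elsewhere, and stem cell markers to 917 to 1224 CPM throughout. Olfm4 gave the largest part of the stem cell sum, and single markers varied more. Lgr5 measured 14.7, 5.45 and 21.5 CPM in control 1, 2 and 3 and 6.51, 6.67 and 5.87 CPM in model 1, 2 and 3. Of the 6 stem cell markers 4 had negative and 2 positive fold changes. The T cell and mast cell sums did not overlap between the groups. Nor did the exocrine pancreas sum, which in model 2 was nearly all Cela1 (8.62 of 8.80 CPM). The smooth muscle sum met only in control 1 and model 1. The 6 T cell markers summed to 104, 118 and 85.4 CPM in control 1, 2 and 3 and to 156, 152 and 126 CPM in model 1, 2 and 3, without overlap and higher in the model libraries. The 6 mast cell markers summed to 25.6, 29.1 and 54.8 CPM in the controls and to 14.7, 19.5 and 22.5 CPM in the model libraries, without overlap and lower in the latter. Most of that sum was Kit, which also marks the interstitial pacemaker cells of the gut wall, while the mast cell receptor gene Fcer1a was at most 0.19 CPM. The 6 smooth muscle markers summed to 1138, 1728 and 1946 CPM in the controls and to 1138, 855 and 863 CPM in the model libraries, all 6 with negative fold changes and Myh11 without overlap. Macrophage markers overlapped between the groups (123 to 269.8 CPM and 196 to 245 CPM). Exocrine pancreas markers (7 in the table, with Cela2a listed at 0) summed to 25.8, 8.80 and 5062 CPM in model 1, 2 and 3 and to 4.16 to 6.76 CPM in the controls. Taken singly, only Cela1 of these genes did not overlap between the groups. The part of these cell types in the gasdermin values was not tested. Large intestine markers were highest in model 1 and control 2, at 204 and 200.4 CPM, and lowest in control 3 at 48.3 CPM, with Car1 at most 0.19 CPM in any library.

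**Figure D5:**
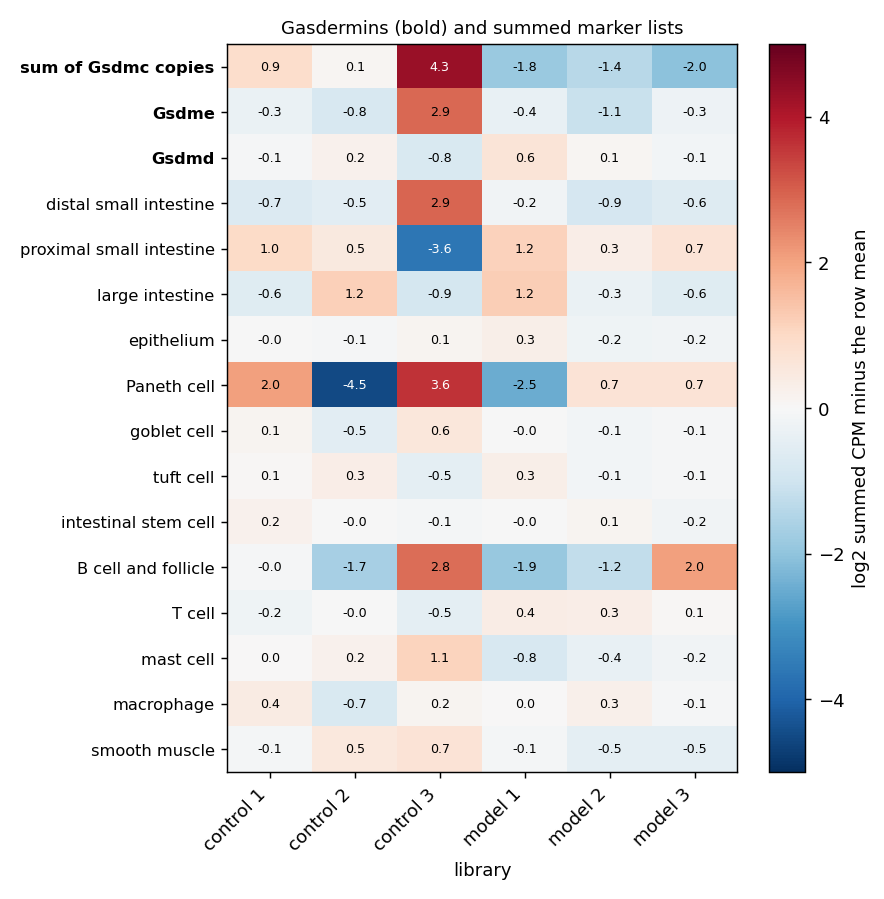
Log2 of the summed CPM of marker lists in each library minus the row mean, below the sum of the Gsdmc copies, Gsdme and Gsdmd (bold). The Gsdmc sum and Gsdme are highest in control 3 with the distal markers. T cell markers are higher and mast cell markers lower in the 3 model libraries than in the 3 controls, and the part of any list in the gasdermin values was not tested.

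The genes around gasdermins in the pathway were taken from 8 lists. Of their 80 genes 67 were in the fit, and edgeR called 0 in either direction, with 0 at an unadjusted p under 0.05. DESeq2 with all 6 libraries also called 0. Over all tested genes the median log2 fold change was -0.018, with 7663 genes above 0 and 8241 below. With scaling by library size alone that median was -0.21, and the list medians moved down with it.

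Of 8 proteases that cut gasdermins in the fit, 5 had positive and 3 negative fold changes, with a median of 0.12 (-0.026 without control 3). Casp1, Casp4, Gzma and Gzmb are named for their roles, with values known. The mean of Casp1 was 122 ± 10.8 CPM for the controls and 113 ± 38.4 CPM for the model libraries. Casp4, the caspase that senses bacterial lipopolysaccharide in the cell, reached 98.6 CPM in control 3, against 20.8 to 39.6 CPM elsewhere. The lymphocyte proteases Gzma and Gzmb, of which the latter can cut Gsdme, were lowest in control 3, at 34.1 and 18.9 CPM.

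Of 14 inflammasome sensors and adaptor genes, which turn on Casp1, 13 had negative fold changes (median -0.25), but without control 3 the number was 8 of 14 and the median -0.038. Nlrp6, a sensor of the gut epithelium, averaged 313 ± 92.7 CPM in the controls, 369.6 ± 75.9 CPM in the model libraries and, like Gsdmd, was lowest in control 3. Naip6, a receptor that works with Nlrc4, stood at 173, 107 and 331 CPM in control 1, 2 and 3 and at 49.98, 142 and 143 CPM in model 1, 2 and 3. Of 7 genes for released cytokines and membrane rupture, 5 had positive fold changes (median 0.24, and -0.057 without model 2). Il18, a cytokine released through Gsdmd pores, was at 67.8, 90.6 and 22.9 CPM in the controls and reached 133, 107 and 80.6 CPM in model 1, 2 and 3, with control 2 above model 3, and the log2 fold change of Hmgb1, a nuclear protein set free by lysis, was -0.053 (SE 0.18).

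All 10 ESCRT genes, whose products shed damaged membrane and so repair gasdermin pores, had positive fold changes, with a median of 0.32, though 7 of 10 did with scaling by library size alone and the median was 0.042 without model 1. The groups overlapped for the 2 with the most counts, Pdcd6ip (log2 fold change 0.059, SE 0.20) and Chmp4c (0.32, SE 0.23). Of 10 genes that place or palmitoylate Gsdmd at membranes, 9 had positive fold changes (median 0.27, and 0.16 without control 3), with scaling by library size alone 6, and without model 1 the median was 0.081. Among them are 2 palmitoyltransferase genes, Zdhhc7 with a log2 fold change of 0.37 (SE 0.29) and Zdhhc5 with one of -0.14 (SE 0.27).

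Of 8 regulators of gasdermin transcription 6 had positive fold changes (median 0.094), with scaling by library size alone 1. Stat3 averaged 210.5 ± 6.35 CPM in the controls against 231 ± 53.2 CPM in the model libraries, and Irf1, an interferon-induced factor, 177 ± 27.6 against 244 ± 65.9 CPM. Stat6, named for its role with values known, was at 180.1, 162 and 120 CPM in control 1, 2 and 3. In model 1, 2 and 3 it was at 176, 172 and 173 CPM. It was lowest in control 3, where the Gsdmc copies were highest, and its part in their values was not tested. Of the type 2 cytokine circuit 9 of 15 genes were in the fit, 7 with negative fold changes (median -0.16). Clca1, a goblet cell product that IL-13 induces, averaged 1594 ± 606 CPM in the controls against 1224 ± 105 CPM in the model libraries, with 2285 CPM in control 3 and 1155 and 1343 CPM in control 1 and 2. Il13ra1, a receptor chain for IL-13, measured 203 ± 57.5 and 185 ± 29.9 CPM. Il13 itself was listed at 0 in all 6 libraries, which again allows up to 0.063 to 0.104 CPM, and Il4 was at 1.18 ± 0.484 and 0.866 ± 0.0854 CPM. Of the other gasdermin genes only Gsdma2 was in the fit, at 0.457 ± 0.353 and 0.561 ± 0.156 CPM, and Gsdma3 and Pjvk had 6 counts or fewer in every library.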

How the data were processed

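Poly-A selected RNA from 6 small intestine libraries was sequenced, per the labels' protocols. Raw gene counts, deposited by the authors as 1 table with gene symbols, were made with FastQC, Trimmomatic, STAR and featureCounts on GRCm39, per the submitters' processing notes. For versions, annotation, strand and multi-mapping settings nothing is stated in the sources used here. Columns were matched to samples by library name. The members and gene lists were chosen with earlier results of these data known. Genes were kept by filterByExpr, scaled by TMM and fitted with edgeR's robust quasi-likelihood F test on the group (R 4.3.3, edgeR 4.0.16), checked on simulated data. There it called 4 of 99 genes changed 2-fold and 78 of 97 changed 8-fold, with 5 false calls. A count of 0 genes called therefore does not show that changes of 2-fold were absent. SE was derived from each log2 fold change and its F value. Centred profiles used log2 CPM with a prior count of 2. Named are all members, the 2 most abundant tested genes of each pathway list, and the 5 or 3 genes nearest in profile, and others were named with values known. Some genes that this rule picks are not reported here. Sequence windows and coding alignments (MAFFT 7.526) used GENCODE M21, and promoters RefSeq. No library was a duplicate: within groups the chi-square of each pair was 115 to 490.4 times its degrees of freedom. Alternatives were other scalings, filters, tests (DESeq2 1.42.0, limma-voom 3.58.1), a replicate block and leaving out libraries.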

Additional observations from a re-analysis of the deposited data

How the results depend on the processing

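The count of 0 genes called over the table, 0 gasdermins and 0 pathway genes held under each edgeR and limma-voom alternative. DESeq2 called 25 genes and 1 gasdermin, and leaving out 1 library at a time, chosen after seeing the data, it called 47, 101 and 21 genes without control 1, 2 and 3 and 20, 87 and 23 without model 1, 2 and 3, with 1 to 3 gasdermins and 0 to 1 pathway genes (Gsdmcl2, without control 1). There the summed cluster was called without control 1, 2 or 3, with log2 fold changes of -5.07, -5.13 and -2.24. Calls of gasdermins and of the sum come from the contrast that chose the family and are no test of it. With edgeR the leave-one-out range was -5.15 to -2.24 for the sum, -5.60 to -1.82 for Gsdmc2, -9.18 to -4.22 for Gsdmc3, -4.75 to -2.29 for Gsdmc4 and -2.55 to 0.0041 for Gsdme, and each value nearest to 0 was the one without control 3. Gsdmd ranged from 0.14 to 0.64 and Gsdma from -0.36 to 0.45. The sign of Gsdma also turned under upper quartile scaling, scaling by library size alone, limma-voom and the replicate block. With library quality weights in limma-voom, also added later, Gsdmc4 was at -2.86, the sum at -2.76 and Gsdme at -0.67. With Gsdmcl2 added to the sum the value was -4.67. Deviations of same-numbered libraries correlated at -0.15, -0.27 and 0.31, and those of differently numbered libraries at -0.35 to 0.48. With 3 libraries per group this does not decide whether the replicate numbers pair the libraries. With the replicate number as a block, edgeR called 0 genes, and the log2 fold change was -3.36 for the sum, -3.32 for Gsdmc4 and -1.11 for Gsdme. Gsdmc2, Gsdmc3, Gsdma and Gsdma2 could not be fitted under the filter of at least 5 CPM in 3 libraries. At 0 to 4 counts in model libraries, depth limits Gsdmc3.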
